A study of Mus musculus with 7 samples.

Results

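The interval of chromosome 8 from 18 to 22 Mb (mm9) held 141 of the 23190 H3K9me3 peaks called in WT Setdb1 cKO iMEFs and 104 of the 3775 peaks called in KO cells. A peak was counted as a member if its start lay from 18 Mb up to, but not including, 22 Mb. The interval was selected on its peak numbers in the 2 lists and on the share of peaks that they have in common, so these quantities are given as a description and were not tested. In the genome as a whole, an overlap with the other list, by 1 bp or more, was seen at 2.42% of WT and 16.1% of KO peaks. The line carries a conditional allele of Setdb1, which encodes an H3K9 methyltransferase, and consists of immortalised mouse embryonic fibroblasts recloned from single cells, the clone being picked for loss of Setdb1 protein on treatment. WT cells carry the same allele and were left untreated, and KO cells received 4-hydroxytamoxifen (4OHT) for 4 days and were collected on day 7. Each group had 1 H3K9me3 library, so that no difference below has a replicate check. Of the 7 samples of the series, the 2 H3K9me3 libraries and the input of E14.5 C57BL/6 forebrain and the 2 iMEF inputs were not used here. Peak lists hold no expression, and the fibroblast identity of the cells could not be checked against markers.

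Trimethylation of histone H3 at lysine 9 (H3K9me3) is known for silent chromatin, including that of endogenous retroviruses and of clustered gene families. Defensins are small cysteine-rich antimicrobial peptides. The β-defensin genes (Defb) are expressed mainly in epithelia, including those of the epididymis and skin, and the α-defensin genes (Defa) in mouse mainly in the Paneth cells of the small intestine. Both families lie as tandem arrays on mouse chromosome 8.

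The highest-scoring WT peaks that overlapped a KO peak lay on a repeat that recurs elsewhere on the chromosome. They are shown with 2 of their copies and a KO peak for contrast, all read from mm9 (NCBIM37). The highest-scoring WT peak that overlapped a KO peak lay at chr8:19760010-19760221, 7774 bp beyond the annotated gene 4930467E23Rik, and is printed from the plus strand with the bases of the KO peak in capitals.
WT peak of highest score: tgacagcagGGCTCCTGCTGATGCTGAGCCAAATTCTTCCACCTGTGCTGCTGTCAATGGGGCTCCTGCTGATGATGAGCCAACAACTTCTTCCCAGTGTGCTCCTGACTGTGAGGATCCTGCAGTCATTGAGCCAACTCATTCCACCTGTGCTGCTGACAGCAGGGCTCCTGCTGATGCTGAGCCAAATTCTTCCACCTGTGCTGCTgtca
The next highest-scoring WT peak of this kind was at chr8:19759714-19759915 on the plus strand.
second WT peak: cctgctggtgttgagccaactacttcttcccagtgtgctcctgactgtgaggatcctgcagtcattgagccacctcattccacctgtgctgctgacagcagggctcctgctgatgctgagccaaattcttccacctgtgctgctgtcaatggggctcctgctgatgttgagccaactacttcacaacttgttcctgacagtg
The place of the interval most similar to this second peak was chr8:19924477-19924678, read from the minus strand, and the most similar place between 71 and 75 Mb of chromosome 8 was chr8:71998821-71999022, also read from the minus strand. Capitals mark the bases that differ from the second peak, 2 in the first copy and 9 in the other.
copy in the interval: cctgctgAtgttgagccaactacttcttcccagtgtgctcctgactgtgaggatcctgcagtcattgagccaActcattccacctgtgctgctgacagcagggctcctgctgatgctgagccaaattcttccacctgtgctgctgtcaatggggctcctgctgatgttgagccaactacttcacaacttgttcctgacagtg
copy beyond 71 Mb: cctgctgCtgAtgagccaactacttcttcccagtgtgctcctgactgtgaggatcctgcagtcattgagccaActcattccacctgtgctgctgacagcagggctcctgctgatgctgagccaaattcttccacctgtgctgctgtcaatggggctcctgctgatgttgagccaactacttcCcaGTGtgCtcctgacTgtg
The highest-scoring KO peak without a WT partner, at chr8:19944373-19944563 and shown from the plus strand, had a different base composition.
KO peak without WT partner: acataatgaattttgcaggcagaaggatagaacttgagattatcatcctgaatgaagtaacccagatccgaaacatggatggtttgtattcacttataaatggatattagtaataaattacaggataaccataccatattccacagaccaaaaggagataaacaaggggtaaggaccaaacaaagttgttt
The GC content was 54.7% in the first sequence, 54.0% in the second and 34.6% in the last. In 2507 bases around the first 2 peaks, the sequence matched itself best when shifted by 51 bases, with 38.8% of bases identical. Shifts of 360, 309 and 102 bases came close, with 37.3%, 36.7% and 36.5%. The level for unrelated sequence was not computed, so no length of a repeat unit is read from these values.

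Most peaks of the interval lay outside the defensin array. In the GENCODE M1 annotation the interval holds 14 β-defensin genes, from Defb40 at 18974940 to Defb7, which ends at 19497775, with Spag11a and Spag11b, epididymal secretory protein genes, among them. The stretch upstream of Defb40 held 15 WT and 2 KO peaks, and the stretch from Defb40 to Defb7 held 14 WT and 3 KO peaks. The other 112 WT peaks, 79.4% of the members (Wilson 95% interval 72.02 to 85.3, counting error only), and 99 KO peaks, 95.2% (89.2 to 97.9), lay distal to Defb7. There the first KO peak began 172431 bp beyond the end of Defb7, and the last one ended 2241 bp before an unsequenced gap of 2000 kb that fills the interval from 20038714 on. A second gap, of 50 kb, begins at 19803129 and separates 52 WT and 36 KO peaks from 60 WT and 63 KO peaks. The name of a defensin cluster therefore fits the genes of the interval but not the position of most of its peaks, and no α-defensin gene other than 4 pseudogenes lies in it.

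**Figure D1:**
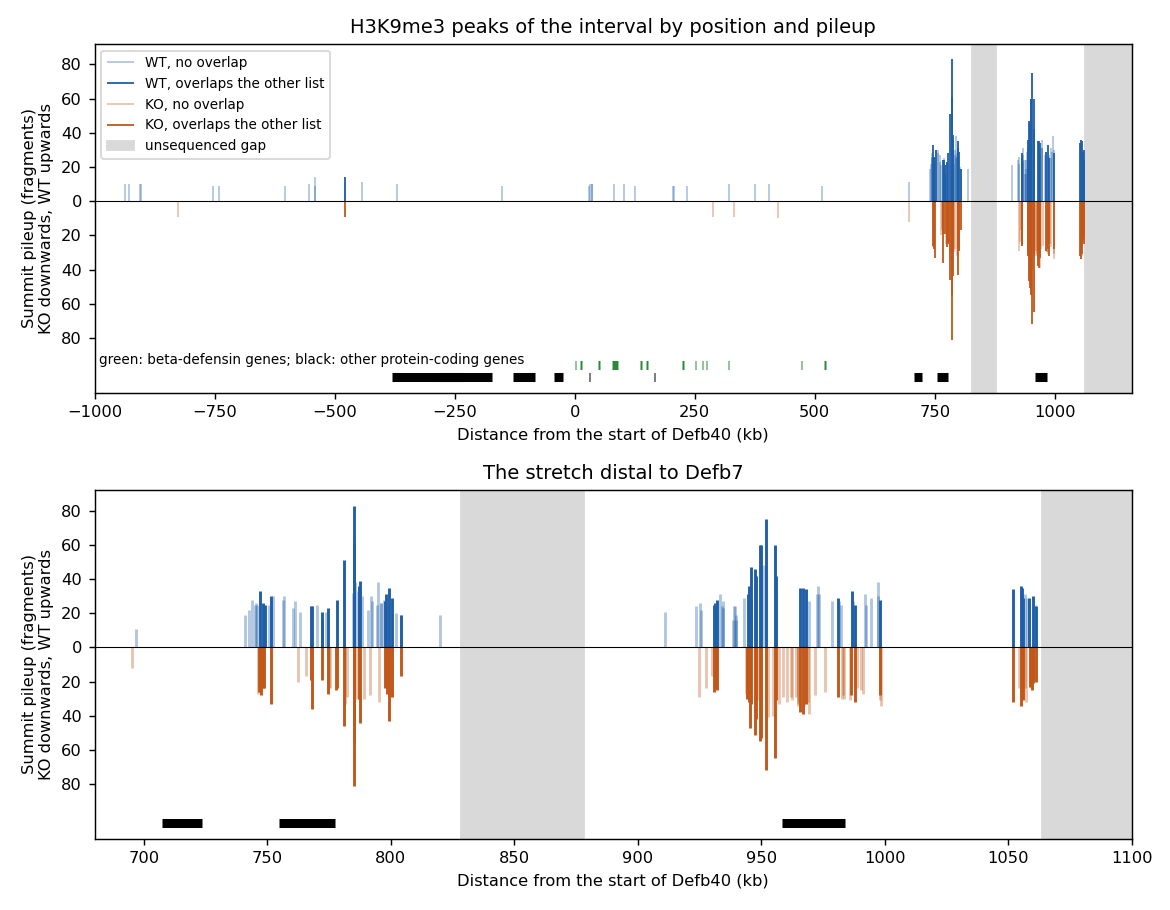
Peaks of the interval by distance from the start of Defb40 (kb, horizontal axis) and summit pileup (fragments, vertical axis), with WT peaks drawn upwards and KO peaks downwards, and the distal stretch enlarged in the lower panel. Dark lines are peaks that overlap a peak of the other list, grey bands are unsequenced gaps, and the green and black bars are genes. Tall lines of both lists, up to 83 fragments in WT and 81 in KO, stand only in the stretch distal to Defb7.

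The distal stretch was far denser in peaks than the remainder of the interval. Per sequenced Mb it held 228 WT and 202 KO peaks, whereas the defensin array held 26.8 WT and 5.74 KO peaks and the stretch upstream of it 15.4 WT and 2.05 KO peaks. The KO list had 88.4% as many peaks as the WT list in the distal stretch (95% interval 67.5 to 116), 21.4% in the defensin array (6.60 to 69.6) and 13.3% upstream of it (3.40 to 52.3). Over the rest of the genome the KO list had 15.9% as many peaks as the WT list (15.4 to 16.5). The defensin array and its upstream flank were thus close to the genome in this ratio, and their intervals are wide.

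Few genes of the interval carried a peak on the gene body or the promoter, taken as 2 kb upstream to 0.5 kb downstream of a transcript start. Of the 14 β-defensin genes, Defb39 alone held a WT peak, with a pileup of 10 fragments over a background of 1.31, and none held a KO peak. The share of all annotated genes with a peak was not computed, so these counts are not read as low for the genome. A WT peak ended 1035 bp before the pseudogene Defa-ps12, and another lay 48 bp beyond Defb3, a β-defensin of epithelia. The nearest KO peak to any of the β-defensin genes was 11713 bp from Defb3, and the median distance over the 14 genes was 82566 bp. For WT peaks this median was 13649 bp. Neither Spag11 gene was within 10 kb of a peak of either list.

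Outside the interval, 39 further protein-coding defensin genes were compared in the same way. The 12 named Defa on chromosome 8 begin with Defa21 at 22165224, distal to the large gap, and are followed by 9 further β-defensin genes from Defb1 to Defb13. Of all 39 genes, Defb1 and Defb22, the latter on chromosome 2, held a WT peak each, and none held a KO peak. Here too the share over all genes is lacking, and nothing is read from the counts. The stretch from 22 to 23 Mb, with the α-defensin genes, had 19 WT and 11 KO peaks, of which 1 in each list overlapped, and their median background was 1.31 and 1.23 fragments.

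Of the other protein-coding genes in the interval, Mcph1, which acts in chromosome condensation, held 1 WT peak at a pileup of 10, and Gm11051 held 2 WT peaks at 9 and 10. Neither held a KO peak. Angpt2, a ligand of the endothelial Tie2 receptor, Agpat5, an acyltransferase of phospholipid synthesis, and Xkr5 held no peak of either list. Gene models of the distal stretch carried 63 of its 112 WT and 60 of its 99 KO peaks. 4930467E23Rik held 12 WT peaks with pileups of 16 to 30 and 9 KO peaks with pileups of 17 to 36. Gm15319 held 11 WT peaks with pileups of 25 to 36 and 20 KO peaks with pileups of 26 to 39, of which 4 in each list overlapped. Gm15319 therefore had more KO than WT calls at like heights, covering 4621 bp in KO and 3153 bp in WT. It lies in the duplicated sequence described below, where reads with several hits were placed at random. An exon was touched by 4 of its KO and 0 of its WT peaks, beside 4 of 104 KO and 0 of 141 WT peaks of the interval. The exon share over the whole lists was not computed. The long noncoding transcript 2610005L07Rik, which spans Gm15319 on chr8:19863337-20020413, held 50 WT and 51 KO peaks, 21 of each overlapping. A pair of further overlapping noncoding models, AC152164.1 and Gm17279, share nearly all of these peaks, which cannot be assigned to 1 of them. The noncoding models Gm10060 and 6820431F20Rik held 1 WT peak each, with pileups of 19 and 21, and 0 KO peaks. Gm6483, between Defb7 and 4930467E23Rik, held none.

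The distal peaks stood on a high local background. This quantity is the number of fragments that the peak caller took as the local level around a peak, recovered from the deposited pileup and fold. In WT its median was 1.20 fragments upstream of Defb40, 1.31 in the defensin array and 8.39 in the distal stretch. In KO the medians were 1.07, 1.07 and 9.08 in the same order. The lowest values of the whole lists were 1.16 in WT and 1.07 in KO, so that the peaks outside the distal stretch were at or near this floor. A background over 3 fragments was found at 111 of the 112 WT and 98 of the 99 KO peaks of the distal stretch, and the exceptions were the most proximal peaks, chr8:19671714-19671988 in WT and chr8:19670206-19670281 in KO. Such backgrounds were found at 4.04% of the peaks of the whole WT list and 17.3% of the whole KO list.

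**Figure D2:**
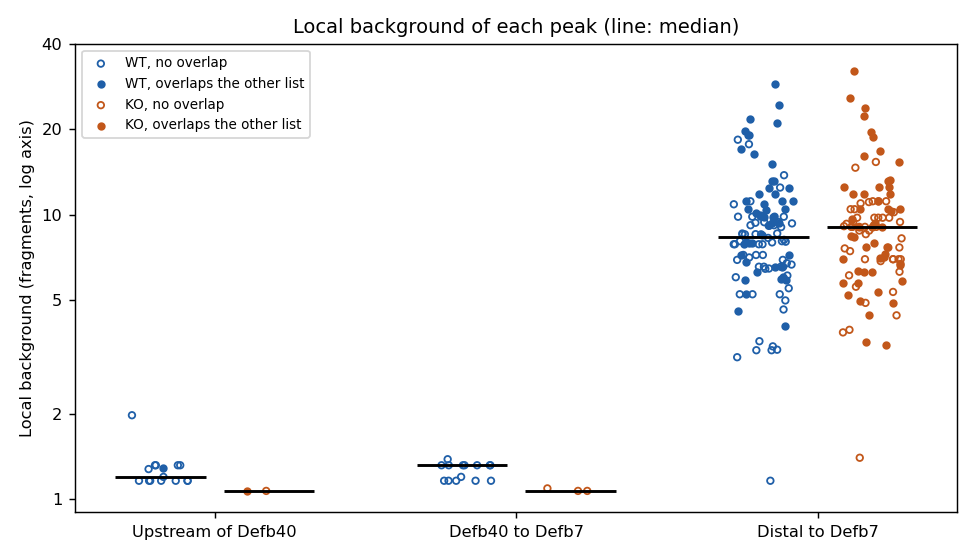
Local background (fragments, log axis) of every member by stretch of the interval, with the median as a line and overlapping peaks filled. WT and KO medians are 8.39 and 9.08 fragments in the distal stretch and no higher than 1.31 in the others.

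Pileups were high where the background was high, and fold enrichments were lower there. The background was computed from pileup and fold, and a call needs a pileup above it, so these relations are not independent. The median summit pileup of distal peaks was 28 fragments in WT and 29 in KO, against 10 in WT and 9 in KO in both other stretches. Distal WT pileups ranged from 11 to 83 and distal KO pileups from 12 to 81, and the ranges of the 2 lists nearly coincided. The median fold was lower in the distal stretch, 3.05 in WT and 3.13 in KO, than in the defensin array, 4.69 in WT and 4.84 in KO. The part of sequence copy number, given below, in these pileups was not tested, and the lists give no input coverage.

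Of the 141 WT peaks of the interval, 49 (34.8%, 27.4 to 42.9) had a KO peak on them, and of the 104 KO peaks 51 (49.0%, 39.6 to 58.5) had a WT peak, beside 2.42% and 16.1% of the whole lists. Since the interval was chosen by these values, nothing is read from the excess. Within it, the overlap was confined to the distal stretch but for 1 pair of peaks. There 48 of 112 WT peaks, 42.9% (34.1 to 52.1), and 50 of 99 KO peaks, 50.5% (40.8 to 60.1), overlapped. In the defensin array 0 of 14 WT peaks overlapped, which leaves a share of up to 21.5%, the Wilson upper bound. The exception was the WT peak chr8:18496246-18497297 upstream of Defb40, with a pileup of 14, and the KO peak chr8:18496351-18496845 within it, with a pileup of 9. Both lay on sequence that occurs once in the genome.

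Where there was no overlap, distances to the other list were as follows. Of the 64 distal WT peaks without overlap, 40 had a KO peak within 1 kb and 62 within 10 kb, and the median distance was 668 bp. Of the 49 distal KO peaks without overlap, 36 had a WT peak within 1 kb and 49 within 10 kb, with a median of 451 bp. Of all peaks of the genome without overlap, 3.53% in WT and 16.3% in KO had a peak of the other list within 1 kb, and 12.2% and 44.2% within 10 kb. The distal stretch was far denser in peaks than the genome, and the part of this density in the distances was not tested. In the defensin array none of the 14 WT peaks had a KO peak within 10 kb. In bases, the lists shared 11099 bp of the distal stretch, which was 33.8% of the WT-covered and 47.6% of the KO-covered length.

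Peaks with a high background overlapped most, in the interval as elsewhere. Of the WT peaks with a background of 3 to 10 fragments, 29.6% of 81 overlapped in the interval (20.8 to 40.3), and 20.6% of 583 in the rest of the list (17.5 to 24.1). Above 10 fragments it was 80% of 30 (62.7 to 90.5) in the interval and 62.1% of 243 (55.9 to 68.0) elsewhere. Up to 1.5 fragments it was 3.45% of 29 (0.611 to 17.2) and 0.832% of 19843 (0.714 to 0.968). Among KO peaks the shares from 3 to 10 fragments were 42.4% of 66 (31.2 to 54.4) in the interval and 31.5% of 337 (26.7 to 36.6) elsewhere. Above 10 fragments they were 68.8% of 32 (51.4 to 82.05) and 81.7% of 218 (76.0 to 86.2). Since the interval was chosen with the overlap known, the difference between interval and rest within a class was not tested. The interval held 11.8% of the WT peaks and 15.01% of the KO peaks that had a background over 3 in the genome.

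**Figure D3:**
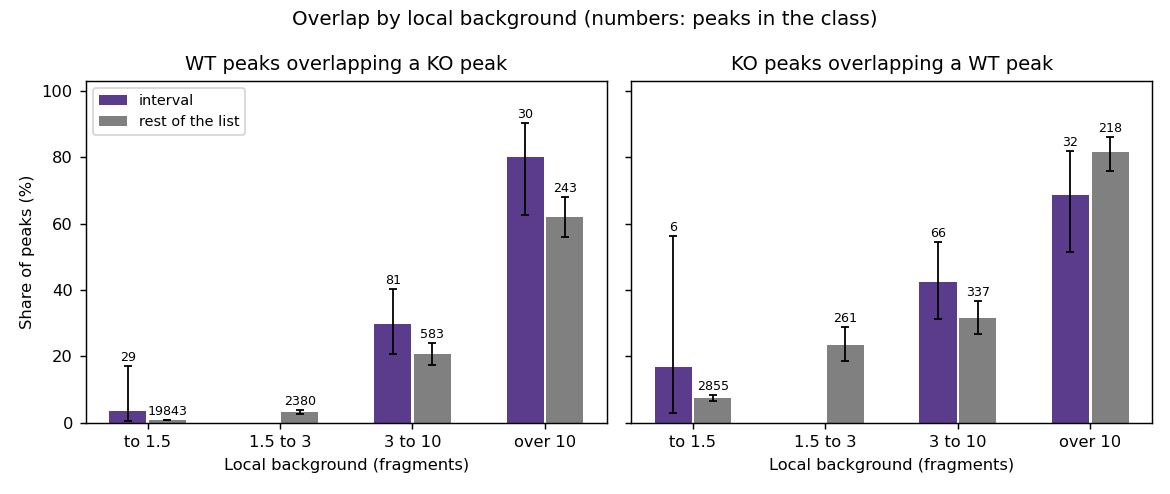
Share of WT peaks overlapping a KO peak (left) and of KO peaks overlapping a WT peak (right) by local background, for the interval and the rest of each list, with Wilson 95% intervals as error bars and the number of peaks above. Classes of fewer than 5 peaks are left out. Above 10 fragments, 80% of WT and 68.8% of KO peaks of the interval overlapped.

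The overlapping peaks formed 54 pairs, in which WT and KO values were alike. A pair exists only where both lists called a peak, so places where 1 list fell below the call are left out beforehand. Part of the likeness is therefore built in. Some peaks entered more than 1 pair, as the 54 pairs came from 49 WT and 51 KO peaks. The median pileup was 30 in WT and 29.5 in KO, with a median KO/WT ratio of 0.932 and quartiles of 0.861 and 1.03. The pileup was lower in KO in 35 pairs, higher in 14 and equal in 5. The fold was lower in KO in 24 pairs and higher in 30, with a median ratio of 1.02. The background was lower in KO in 37 of the 54 pairs, with a median ratio of 0.921, and the floor of the KO list was itself 0.921 times that of the WT list. For the 563 pairs of the rest of the genome, the median KO/WT ratio was 0.885 for the pileup and 0.966 for the fold. Peak widths differed more. In the interval the KO peak was the narrower in 36 of 54 pairs, with a median KO/WT ratio of 0.890 and quartiles of 0.434 and 1.42, and elsewhere in 471 of 563 pairs, with a median ratio of 0.593. The lists were not scaled to each other, so that a ratio also carries the difference in depth.

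**Figure D4:**
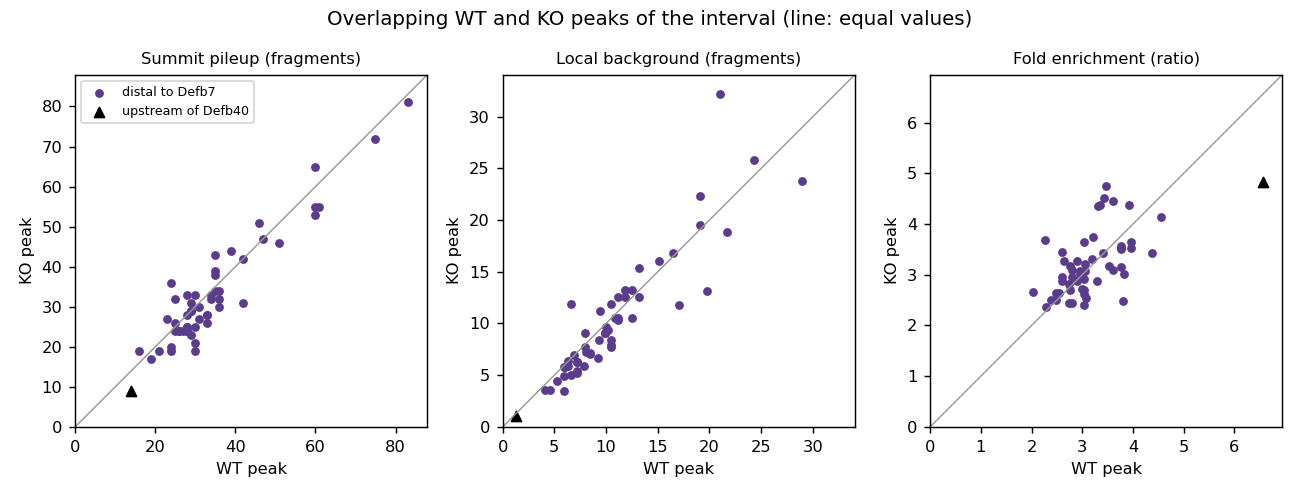
KO against WT values for the 54 overlapping pairs of the interval: summit pileup (fragments), local background (fragments) and fold enrichment (ratio). The line marks equal values. Most pileups and backgrounds lie near the line, with 35 of 54 pileups lower in KO, and the 1 pair upstream of Defb40 has a higher fold and a lower background than any other pair.

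The 3 highest-scoring overlapping WT peaks all lay on the GC-rich repeat printed above. At chr8:19760010-19760221 the pileup was 83 in WT over a background of 21.0, and 81 in KO over 32.1. At chr8:19759714-19759915 it was 61 over 13.1 in WT, and 55 over 15.4 in KO. At chr8:19926625-19927048, in an intron of 2610005L07Rik, it was 75 over 24.3 in WT, and 72 over 25.9 in KO. In these 3 pairs the KO pileup was lower and the KO background higher, so that the score, −log10 of the q-value, fell from 18.7 to 8.60, from 16.2 to 10.51 and from 11.2 to 9.28. These pairs were picked for a high WT score. Over all 54 pairs the score was lower in KO in 30 and higher in 24, with a median of 4.09 in WT and 4.50 in KO. The KO peaks of highest score that overlapped a WT peak lay elsewhere, at chr8:19774011-19774161 and chr8:19921851-19922539. Their KO scores were 11.6 and 10.9, and their GC content was 38.4% and 36.4%.

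The 3 WT peaks of highest score without overlap were poorer in GC than the 3 overlapping ones named above, with 35.0%, 38.3% and 42.4%. The first, chr8:19769596-19770027 with a pileup of 38 and a score of 12.0, was 14718 bp before the pseudogene Gm10060, 17360 bp beyond 4930467E23Rik and 93 bp from the KO peak chr8:19770120-19770407, itself 1 of the 3 highest-scoring KO peaks without overlap, with a pileup of 32 and a score of 7.84. The calls of both lists thus stood side by side there. The other 2, chr8:19913727-19913901 and chr8:19913987-19914215, both had a pileup of 24, a fold of 5.76 and 5.74 and a background of 3.34 and 3.36, and the nearest KO peak was 4861 and 4547 bp away. The KO peak chr8:19944373-19944563, in Gm15319, had a pileup of 39 and a score of 8.65 and lay 158 bp from a WT peak. The KO peak chr8:20032149-20032305 had a pileup of 32 and lay 219 bp from one. The KO peaks of highest score without overlap were thus all within 219 bp of a WT peak. The contrast in GC holds for the picked peaks only. The WT peaks chr8:19925120-19925615 and chr8:19926159-19926525, without overlap, had 53.0% and 54.8% GC. The overlapping WT peaks chr8:19721312-19722380 and chr8:19755609-19756113 had 36.3% and 30.7%. A difference in GC between overlapping and other peaks was not tested.

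The widest WT peak, chr8:19906445-19907716, was 1271 bp wide with a pileup of 28, and 2 KO peaks with pileups of 24 and 25 lay across it. The widest KO peak, chr8:20029733-20030806, was 1073 bp wide with a pileup of 34, and covered 2 WT peaks with pileups of 36 and 35. At both places 1 peak of 1 list faced 2 peaks of the other. At the edges of the interval, the last WT peak before it was chr8:17883139-17883287 (pileup 9) and the first inside it chr8:18037550-18037754 (pileup 10). The last WT peak inside was chr8:20036101-20036465 (pileup 24), and the first beyond it chr8:22054300-22054477 (pileup 9). In KO the last peak before it was chr8:17612379-17612444 (pileup 11) and the first inside chr8:18149165-18149238 (pileup 9). The last KO peak inside was chr8:20036116-20036472 (pileup 20) and the first beyond it chr8:22086094-22086162 (pileup 10). The genes nearest to these edge peaks were Csmd1 before the interval, SNORA17 and 2610005L07Rik inside it, and Gm6040 in WT and AY761185 in KO beyond it.

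The distal stretch is built of duplicated sequence. The median position occurred 2 times in the genome, counted by 31-mers, and 50.2% of positions recurred within the interval, compared with 13.4% in the defensin array and 5.52% upstream of it. The peaks lay on the more repeated part of it. The median copy number of distal peaks was 4 in both lists, and 82.1% of WT and 79.8% of KO peaks recurred within the interval. Of the distal members, 0.893% of WT and 7.07% of KO peaks had a single copy, while 28.3% of all WT and 56.8% of all KO peaks of the genome did. Peaks with over 1000 copies, 35.5% of the whole WT list, made up 0% of the distal members. The median GC content was 38.6% in distal WT peaks and 37.5% in distal KO peaks, against 42.0% for the stretch as a whole.

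A search for similar sequence, with at least 90% identity over at least 80% of the peak, placed the copies. Of the distal peaks, 105 of 112 in WT and 96 of 99 in KO had a similar place elsewhere in the interval, at a median best identity of 99.2% and 99.1%. Most of these places were on the opposite strand, 88 of 105 for WT and 80 of 96 for KO. A second set of copies lay between 71 and 75 Mb of the same chromosome. It was found for 93 WT peaks, 83.0% (75.02 to 88.9), and 91 KO peaks, 91.9% (84.9 to 95.8), at a median best identity of 97.2% and 97.4%. These limits of 71 and 75 Mb were set after the copies were seen. The same search found a place there for 6 of 15 WT and 0 of 2 KO peaks upstream of Defb40. In the defensin array it did so for 7 of 14 WT and 1 of 3 KO peaks. Similar places elsewhere in the genome were found for 45.5% of distal WT and 43.4% of distal KO peaks, and every distal peak had a similar place somewhere. Only 61 of the 112 WT and 56 of the 99 KO peaks had their similar places in the interval or between 71 and 75 Mb alone. The others also match sequence dispersed over the genome.

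The stretch from 71 to 75 Mb also carried peaks of both lists. It held 192 WT and 113 KO peaks, of which 29 and 31 overlapped, 15.1% (10.7 to 20.9) and 27.4% (20.1 to 36.3). Its peaks on sequence similar to a distal member, 66 in WT and 58 in KO, had a median background of 3.29 in WT and 3.07 in KO, and its remaining peaks of 1.38 and 2.79, so that the kinds differed less in KO. Of the former 28.8% and 36.2% overlapped, and of the remaining peaks 7.94% and 18.2%. The copies of the printed second peak show this at a single sequence. The copy in the interval carried a WT peak with a pileup of 60 and a KO peak with a pileup of 55, and the copy beyond 71 Mb carried 45 and 47. Reads that fit several of these places were put at 1 of them at random, so that neither copy can be read alone.

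Not every copy of a peak was itself called. At the most similar place in the interval, 47 of 105 distal WT peaks had a WT peak, 44.8% (35.6 to 54.3), and 42 had a KO peak, 40% (31.1 to 49.6). For distal KO peaks 43 of 96 places held a WT peak and 40 a KO peak. At the most similar place between 71 and 75 Mb, 29 of 93 WT peaks had a WT peak, 31.2% (22.7 to 41.2), and 24 had a KO peak. The 33 pairs of similar places that both carried a WT peak differed in pileup by a median of 1.16 times and at most 1.56 times. In 14 of these pairs both peaks overlapped a KO peak, in 14 only 1 did and in 5 neither did. The 27 such pairs of the KO list differed in pileup by a median of 1.24 times and at most 1.97 times. Only places that both carried a peak were compared, and reads that fit both were placed at random. Nothing is therefore read from these ratios.

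**Figure D5:**
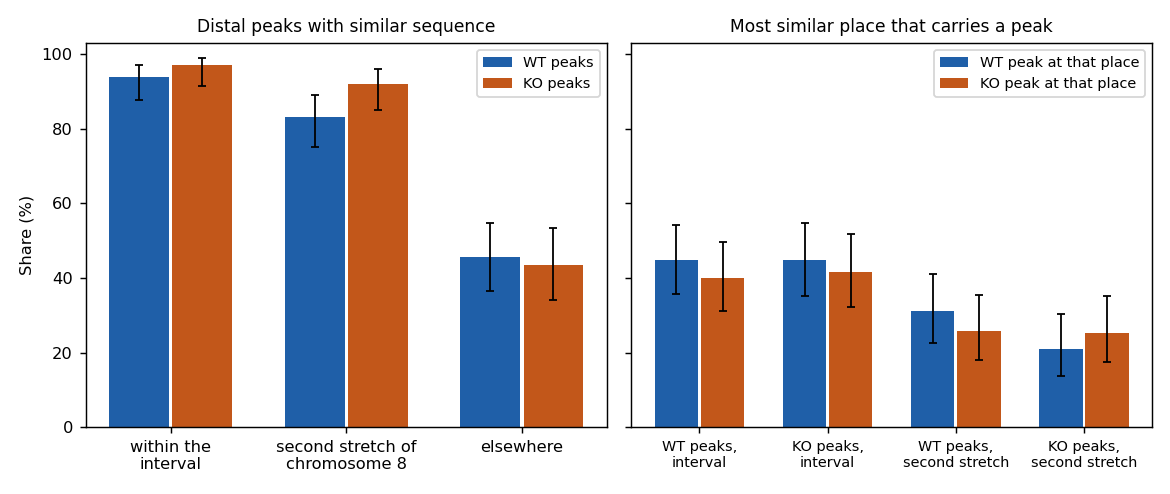
Left, share of distal WT and KO peaks with similar sequence within the interval, in the second stretch of chromosome 8 (71 to 75 Mb) or elsewhere. Right, share of their most similar places that carry a WT or a KO peak. Bars show percent with Wilson 95% intervals, and 83.0% of WT and 91.9% of KO peaks have a copy in the second stretch, where at most 31.2% of these places carry a WT peak and at most 25.8% a KO peak.

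Single-copy sequence was rare among the distal peaks by 31-mers, and less so by 50-mers, with 12.5% of WT and 23.2% of KO peaks. The 7 distal KO peaks with a copy number of 1 lay on chr8:19927574-19942465, 5 of them in Gm15319, with pileups of 29 to 41 over backgrounds of 9.19 to 14.7. None of them overlapped a WT peak, which leaves a share of up to 35.4%, the Wilson upper bound, beside 16.1% of the whole KO list. The nearest WT peaks were 229 to 3385 bp away. The same span held 16 KO peaks in all, of which 4 overlapped, and 4 WT peaks, of which 4 overlapped. Each of the 7 peaks had 1 further similar place in the interval, at 94.8% to 98.3% identity. The 7 KO peaks were thus of single copy by the median 31-mer only, and the part of copy number in their background was not tested.

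Among 658 windows of 4 Mb tiled over the genome from 2 Mb of each chromosome, the interval had the most KO peaks, where the median window had 3, and ranked 9th by WT peaks, where the median was 30. By median WT background it ranked 3rd. These ranks describe how the interval was found and do not test it.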

How the data were processed

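H3K9me3 ChIP-seq peak lists of WT and KO Setdb1 cKO iMEFs were analysed, 1 library each. The authors digested native chromatin with MNase, precipitated it with a polyclonal antibody, aligned the single-end reads with Bowtie2 2.2.3 (mm9), put reads with several hits at 1 of them at random, and removed duplicates with Picard. The authors called peaks with MACS2 2.1.0.20140616, whose options and use of the input are not given in the sources used here. The deposited pileup is a signal, the fragment coverage at the summit. The deposited fold is the ratio of pileup to local background with 1 added to both, so the background was taken as (pileup + 1) / fold − 1. The lists also deposited −log10 p-values and −log10 q-values per peak, the second being called the score. The authors give the reads of the iMEF libraries only as an approximate range over both, so the depth of each library was not used here.

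Peaks overlapped if they shared at least 1 bp. Wilson 95% intervals of shares reflect counting error alone, and intervals of a KO/WT ratio were derived from that of the KO share. No test was run. Genes were those of GENCODE M1 on NCBIM37. Copy numbers were medians over the 31-mers of a peak, both strands, in the mm9 chromosomes, and similar places came from megablast 2.17.0 with a word size of 28. Whether starts count from 0 or 1 is not stated, so positions carry an uncertainty of 1 bp, and sequences were read with both ends included. The peaks named were the 3 of highest score in each overlap class, the widest of each list and those at the edges of the interval. Genes named were coding and long noncoding genes and defensin pseudogenes with a peak on the body or promoter, the nearest to a named peak and, for contrast, the other protein-coding genes. Members, lists and stretches were chosen with earlier results of these data known. Alternatives covered peak thresholds, merging, interval limits, copy number, overlap and gene distance. Overlap and 31-mer code was tested on simulated data. Software was samtools 1.23.1, pysam 0.24.0, numba 0.67.0, scipy 1.17.1, pandas 2.3.3, matplotlib 3.10.9 and numpy 2.4.6 under Python 3.11.15.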

Additional observations from a re-analysis of the deposited data

How the results depend on the processing

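No paired analysis was possible because WT and KO had 1 library each, which also left no replicate to leave out. Merging peaks within 1 kb left 69 WT and 44 KO peaks and a median WT background of 6.04 fragments, with 33.3% of WT and 56.8% of KO peaks overlapping. Single-copy peaks alone, 11 in WT and 11 in KO, overlapped in 9.09% of each list, and the median background was then 1.29 in WT and 9.31 in KO. Of these peaks 1 in WT, with a background of 12.5, and 7 in KO lay in the distal stretch. The 2 medians thus come mostly from different stretches and do not compare the lists at like places. A pileup of at least 15 gave an overlap of 43.2% of WT peaks and a WT background of 8.47. Requiring 50% of the peak to be covered gave 24.1% of WT peaks, and counting a peak of the other list within 1 kb gave 63.8% of WT and 83.7% of KO peaks. After the data were seen, the interval was also split at the end of Defb7. The distal stretch alone had a WT background of 8.39, and the remainder had 29 WT and 5 KO peaks, with an overlap of 3.45% and 20% and a background of 1.27 and 1.07. With a promoter reaching 5 kb upstream 2 β-defensin genes held a WT peak, and within 10 kb of the body 4 did, while none held a KO peak. Within 10 kb of defensin genes outside the interval there were WT peaks for 7 genes and KO peaks for 3. By 50-mers the median copy number of distal peaks was 2 in WT and 2 in KO. A single copy was then found for 12.5% of distal WT and 23.2% of distal KO peaks, beside 39.0% and 68.6% of the whole lists. All other alternatives kept counts within 1.5 times and shares within the interval of the reported value. The median background under them ranged from 6.57 to 7.98 fragments in WT, with 7.23 reported, and from 7.95 to 9.08 in KO, with 8.95 reported. The depth of each library was not used, and the values of single copies rest on reads placed at random.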
